A study of Homo sapiens with 6 samples.

Results

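This report follows 41 human genes that protect cells from oxidants and handle iron. They were measured in HK2 cells labelled as Control or as overexpressing the mineralocorticoid receptor gene. They are the regulators of the transcription factor NRF2 and its best known targets, the enzymes of the glutathione, thioredoxin and peroxiredoxin systems, the suppliers of NADPH, several aldo-keto reductases, the superoxide dismutases and catalase, and the genes of iron storage, transport and ferroptosis. The genes were chosen by symbol, and all 41 were found among the 37202 genes of the deposited table. Of the 21509 genes that passed the filter on low counts, 40 belonged to them, and AKR1C2 was too low to test.

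HK2 cells derive from epithelium of the human proximal kidney tubule and were immortalized. Total RNA was sequenced, paired-end and strand-specific, in 3 Control libraries and in 3 libraries called NR3C2-OE. The NR3C2-OE cells received a plasmid, delivered with Lipofectamine, to overexpress the mineralocorticoid receptor gene NR3C2. The genotype is labelled normal in Control and NR3C2 overexpression in NR3C2-OE. The labels do not say whether Control cells received an empty plasmid or the lipid alone, how long after transfection RNA was taken, whether a receptor ligand was added, or whether each library is its own culture. For this reason a p-value here is set against the spread between libraries alone, and that spread may be technical.

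Estimated counts totalled 77737375 to 132533971 per library. NR3C2 (ENSG00000151623) measured 5.97, 6.26 and 5.16 FPKM (fragments per kilobase of transcript, scaled to library size) under Control and 12.1, 6.95 and 7.41 FPKM under NR3C2-OE. The lowest NR3C2-OE value lay above the highest Control value, but edgeR's test was not passed (log2 fold change 0.68, SE 0.23, adjusted p = 0.486), and without NR3C2-OE library 1 the log2 fold change was 0.36. Keratins KRT8, KRT18 and KRT19 and the epithelial adhesion molecule EPCAM ran from 56.5 to 205 FPKM, while the epithelial cadherin CDH1 had at most 0.165 FPKM. Of 5 measured proximal tubule markers, CUBN, AQP1 and SLC34A1 had at most 0.143 FPKM in any library, SLC5A2 had 0.451 to 1.08 FPKM and GGT1 had 16.3 to 56.7 FPKM. Of 10 measured markers of distal tubule, fibroblasts, endothelium and leukocytes, 7 stayed below 0.5 FPKM in every library. Their summed FPKM was 29 to 31.4 in Control and 32.2 to 39.2 in NR3C2-OE, and their part in the results was not tested. Most of the sum was the lysosomal membrane protein gene CD68, and without it the sums were 7.93 to 10.4 and 8.31 to 8.63 FPKM.

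NRF2, encoded by NFE2L2, is held in the cytoplasm by KEAP1, which presents it to a ubiquitin ligase for degradation. Oxidants and electrophiles modify KEAP1, and NRF2 then enters the nucleus, pairs with a small MAF protein such as MAFG and binds antioxidant response elements near its target genes. Iron is controlled at another level. Iron regulatory proteins bind hairpins called iron responsive elements in mRNA, which blocks translation where the hairpin lies in the 5′ UTR and protects the mRNA from decay where it lies in the 3′ UTR. Proximal tubule cells carry heavy oxidative metabolism and are known for their sensitivity to ferroptosis, a form of death driven by iron and lipid peroxides.

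Both kinds of element can be read in the reference sequence of the genes. Iron responsive elements were searched on the transcript strand of GENCODE 29 transcripts as a C, 5 bases, the loop CAGTGN and 5 bases, in which the 5 bases before the loop had to pair with the 5 after it (G with U allowed). Of 19669 protein-coding genes, 291 (1.48%) held at least 1 match, and 4 of the 41 genes did, all of them iron genes: FTH1, FTL, SLC40A1 and TFRC. The 7 matches, written with T for U, are shown because they set these 4 mRNAs apart from the rest, with the loop in capitals.
FTH1, 5′ UTR, chr11:61967574-61967601, minus strand: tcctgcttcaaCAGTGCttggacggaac
FTL, 5′ UTR, chr19:48965336-48965363, plus strand: tcttgcttcaaCAGTGTttggacggaac
SLC40A1, 5′ UTR, chr2:189580661-189580688, minus strand: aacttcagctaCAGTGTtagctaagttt
TFRC, 3′ UTR, chr3:196050979-196051006, minus strand: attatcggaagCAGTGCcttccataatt
TFRC, 3′ UTR, chr3:196050575-196050602, minus strand: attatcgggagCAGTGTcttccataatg
TFRC, 3′ UTR, chr3:196050510-196050537, minus strand: tgtatcggagaCAGTGAtctccatatgt
TFRC, 3′ UTR, chr3:196050463-196050490, minus strand: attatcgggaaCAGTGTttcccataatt
Coordinates are those of GRCh38. The 3 genes with a hairpin in the 5′ UTR and TFRC, with 4 in the 3′ UTR, are described together with the iron genes.

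The antioxidant response element was searched as TGACNNNGC on both strands of RefSeq promoter windows (GRCh38.p14), which run from 250 bases before a gene's start to 50 after it. RefSeq windows matched 33 of the 41 genes, and HMOX1, GSR, PRDX1 and FTH1 were among those without a window. At least 1 match lay in 8 of their 45 windows (17.8%), against 13.3% of all 35116 windows. The matches belonged to 7 genes, and NQO1 was not among them. A match is a description of the letters and not of binding. Of the 11 matches, 6 that lie wholly before the start are printed, to show the element beside a glutathione gene, an NADPH gene, thioredoxin reductase, a ferroptosis gene and the inhibitor of NRF2. The motif is in capitals, on either strand.
GCLM, chr1:93909438-93909482, minus strand: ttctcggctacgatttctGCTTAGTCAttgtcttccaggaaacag
ME1, chr6:83431162-83431206, minus strand: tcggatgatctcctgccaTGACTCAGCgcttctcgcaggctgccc
TXNRD1, chr12:104215662-104215706, plus strand: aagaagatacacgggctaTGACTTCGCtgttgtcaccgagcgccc
TXNRD1, second start, chr12:104286912-104286956, plus strand: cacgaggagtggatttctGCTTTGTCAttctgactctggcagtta
AIFM2, chr10:70132826-70132865, minus strand: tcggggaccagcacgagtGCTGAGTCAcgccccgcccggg
KEAP1, chr19:10502776-10502820, minus strand: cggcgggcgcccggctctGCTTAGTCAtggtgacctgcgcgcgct
The motif starts 34 bases before the start in GCLM, 137 in ME1, 99 and 102 in TXNRD1, 22 in AIFM2 and 31 in KEAP1.

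Most of the 40 tested genes differed little between NR3C2-OE and Control. Log2 fold changes ran from -0.87 for NFE2L2 to 0.36 for GPX8, both with wide intervals. None of the 40 passed edgeR's quasi-likelihood test after adjustment over all genes, where 0.0279% of all tested genes (6 of 21509) did. DESeq2, which called 250 of the 37202 genes of the table, also called 0 of the 40. At an unadjusted p below 0.05, edgeR listed 3 of 40 (7.5%), all higher in NR3C2-OE, against 9.19% of all tested genes (4.43% higher and 4.76% lower). DESeq2 listed 1 of the 40 at that bound, and 2068 of the 37202 genes. The FPKM of the groups did not overlap for 7 of 40 (17.5%), of which 6 were higher and 1 was lower in NR3C2-OE, against 16% of all tested genes (9.38% higher and 6.65% lower). Both shares lay near those of all genes. The log2 fold changes of the estimated counts, NR3C2-OE over Control, were positive for 27 and negative for 13 genes, with a median of 0.038, and over all tested genes 50.2% were positive with a median of 0.0007. In bulk RNA fewer cells with a transcript and less of it per cell cannot be told apart. Exons of 12 of the 41 genes overlap another gene in GENCODE 29, NFE2L2, SOD2, FTH1, PRDX1, MAFG and AIFM2 among them, and whether the authors counted by strand is not given, so reads may be shared there.

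Set against the spread between libraries, which may be technical, most of these changes had narrow intervals. For 31 of the 40 genes (77.5%) the 95% interval of the fold change lay wholly within 1.5-fold in either direction, against 53.1% of all tested genes. The 9 others were NFE2L2, KEAP1, GPX1, GPX8, TXNRD1, SOD2, TFRC, AKR1C1 and AKR1B10. The last 2 had mean levels of 0.157 and 0.120 FPKM, and the first 7 varied between libraries of the same group. The share is not particular to this set: in the other pathway lists described below it was 80.8% (63 of 78). Of the 40 genes, 38 had a mean of at least 1 FPKM, against 13740 of the 21509 tested genes. The part of level in the share was not tested.

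**Figure D1:**
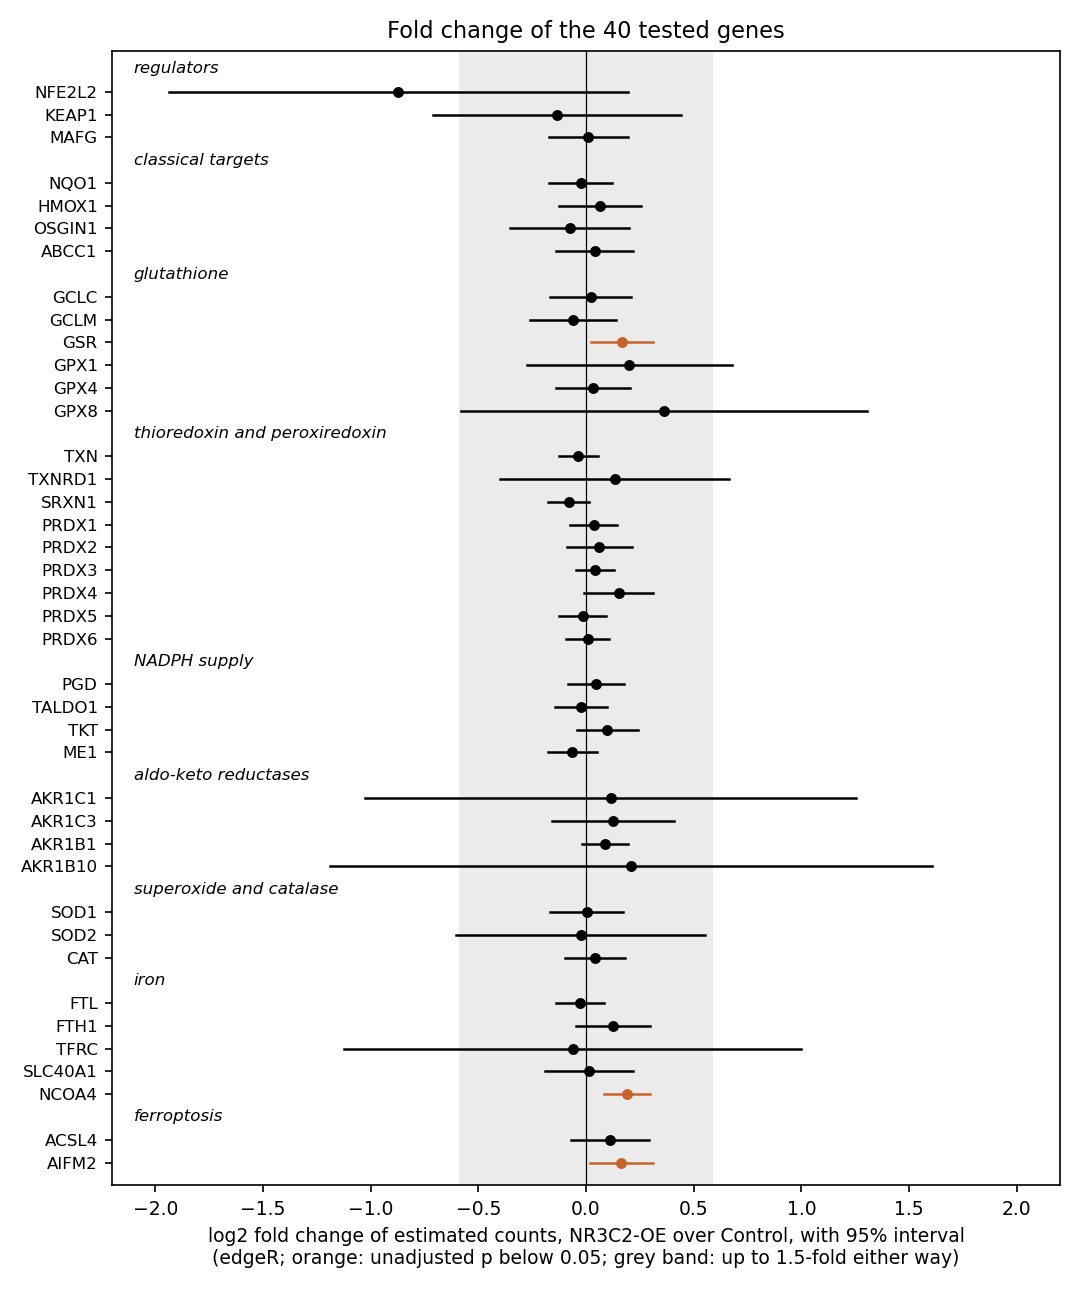
Log2 fold change of the estimated counts (NR3C2-OE over Control, x axis) of the 40 tested genes, grouped by role, with edgeR's 95% interval as a line. NCOA4, GSR and AIFM2, in orange, had an unadjusted p below 0.05, and 31 intervals lie inside the grey band of 1.5-fold either way.

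By level the genes spanned 5 orders of magnitude on the FPKM scale. The ferritin light chain FTL led with a mean of 1876 FPKM over the 6 libraries, at rank 51 among all genes of the table, followed by the aldose reductase AKR1B1 (1266 FPKM), the ferritin heavy chain FTH1 (1197 FPKM), the peroxiredoxin PRDX1 (918 FPKM) and thioredoxin TXN (417 FPKM). At the other end AKR1C1, AKR1B10 and AKR1C2 had means of 0.157, 0.120 and 0.018 FPKM. The 41 genes together held 0.960% to 1.01% of the summed FPKM of a Control library and 1.00% to 1.05% of an NR3C2-OE library.

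**Figure D2:**
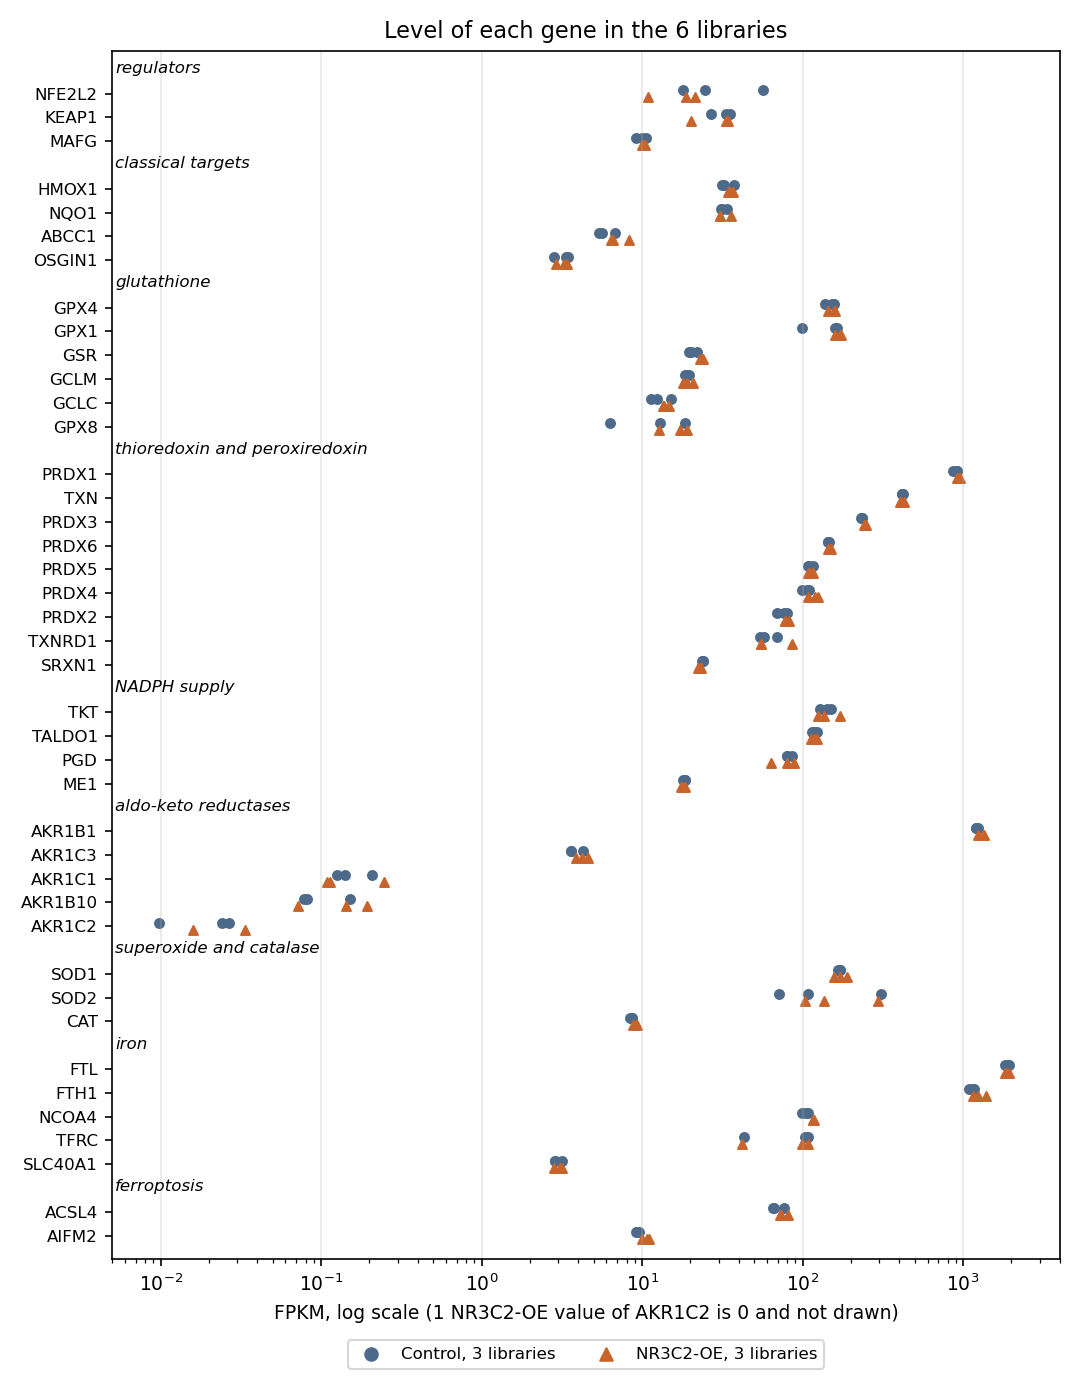
FPKM of each gene on a log axis in 3 Control (circles) and 3 NR3C2-OE (triangles) libraries, grouped by role. Most genes form a tight cluster of 6 values, while NFE2L2, GPX8, SOD2 and TFRC spread within a group.

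Among the regulators, NFE2L2 (ENSG00000116044) varied most. In library order, its FPKM was 17.9, 24.6 and 56.6 under Control and 21.5, 10.9 and 18.6 under NR3C2-OE. Control library 3 stood highest and NR3C2-OE library 2 lowest, and the other 4 values of both groups overlapped. The log2 fold change of -0.87 (SE 0.44, edgeR adjusted p = 0.620) had a 95% interval from -1.94 to 0.20. It was -0.40 without Control library 3 and -0.57 without NR3C2-OE library 2. When any other library was left out, it was -1.12 to -0.98. KEAP1, the adaptor that marks NRF2 for degradation, had 26.8, 35.5 and 33.1 FPKM in Control and 34.4, 20.3 and 33.1 FPKM in NR3C2-OE. NR3C2-OE library 2 was again the lowest, and the groups overlapped (log2 fold change -0.13, SE 0.24, edgeR adjusted p = 0.915). MAFG, the small MAF partner, was even, with 9.22, 9.98 and 10.6 FPKM in Control and 9.94, 10.2 and 10.4 FPKM in NR3C2-OE (log2 fold change 0.011, SE 0.077, edgeR adjusted p = 0.978).

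In the counts, the 4 classical targets were more even across the libraries than NFE2L2. NQO1, the quinone reductase most often used as a readout of NRF2, had 33.7, 31.4 and 31.1 FPKM in Control and 35.9, 30.4 and 30.8 FPKM in NR3C2-OE. The groups overlapped. In Control library 3 the FPKM of NFE2L2 was 3.15 times that of Control library 1. NQO1 there was 31.1 FPKM, close to the 31.4 of Control library 2. In CPM (counts scaled to library size alone), NFE2L2 was 192 in Control library 3 and 77.8 in Control library 1, a smaller ratio. The log2 fold change of NQO1 was -0.024 (SE 0.061, edgeR adjusted p = 0.941), with a fold change between 0.89 and 1.09 in the 95% interval. HMOX1, which breaks down haem and releases its iron, had 31.3, 37.2 and 32.3 FPKM in Control and 35.5, 36.7 and 34.3 FPKM in NR3C2-OE. These values overlapped as well (log2 fold change 0.067, SE 0.079, edgeR adjusted p = 0.852). OSGIN1, an oxidative stress induced growth inhibitor, and ABCC1, an exporter of glutathione conjugates, had Control means of 3.21 ± 0.33 and 5.92 ± 0.76 FPKM and NR3C2-OE means of 3.18 ± 0.25 and 7.06 ± 1.06 FPKM (SD, n = 3 each). Their log2 fold changes in the counts were -0.077 and 0.040, and the 95% interval of each of the 4 targets lay within 1.5-fold. The FPKM of ABCC1 was less even, at 5.39 to 8.28 over the libraries. The effective transcript length implied by its count and FPKM ran from 4206 to 6208 bases.

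In the glutathione system GCLC and GCLM differed little between the groups in the counts, while GSR had separate groups. Glutathione synthetase, GSS, is described below with the pathway lists. GCLC and GCLM, the catalytic and modifier subunits of the enzyme that limits glutathione synthesis, had log2 fold changes of 0.022 and -0.060 (SE 0.078 and 0.084). GSR (ENSG00000104687), which returns oxidized glutathione to its reduced form with NADPH, had 19.7, 20.2 and 21.9 FPKM in Control and 22.9, 23.6 and 24.0 FPKM in NR3C2-OE. Every NR3C2-OE value lay above every Control value. edgeR's test was not passed (log2 fold change 0.17, SE 0.060, unadjusted p = 0.0301, adjusted p = 0.498), and the unadjusted p was below 0.05 in 2 of the 6 fits that left out a library.

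Glutathione peroxidases such as GPX1 and GPX4 reduce peroxides at the cost of glutathione. GPX4 is the member that acts on lipid peroxides in membranes and so guards against ferroptosis. GPX4 had 137, 152 and 157 FPKM in Control and 159, 144 and 157 FPKM in NR3C2-OE. The groups overlapped, and the 95% interval of the log2 fold change ran from -0.14 to 0.21 (value 0.032, SE 0.072, edgeR adjusted p = 0.933). GPX1, the abundant cytosolic member, had 164, 158 and 99.2 FPKM in Control and 172, 174 and 160 FPKM in NR3C2-OE. Control library 3 alone was low, and without it the log2 fold change went from 0.20 (SE 0.20) to -0.007. The processed pseudogene of GPX1 held 2.88% to 5.94% of the parent's counts. The highest share was in Control library 3, where the parent, its divisor, was lowest. That share alone therefore does not show more pseudogene reads, and read sharing was not tested. GPX8, an endoplasmic reticulum member, had 6.35, 12.9 and 18.5 FPKM in Control and 12.8, 17.2 and 19.0 FPKM in NR3C2-OE, which is a 2.92-fold range within Control (log2 fold change 0.36, SE 0.39, edgeR adjusted p = 0.833).

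Of the 9 thioredoxin and peroxiredoxin genes, all but TXNRD1 had an interval within 1.5-fold. Peroxiredoxins reduce peroxides with a reactive cysteine that thioredoxin, kept reduced by thioredoxin reductase, restores, and sulfiredoxin (SRXN1) rescues peroxiredoxins that have been overoxidized. The summed FPKM of PRDX1 to PRDX6 was 1571 ± 33.4 in Control and 1636 ± 20.1 in NR3C2-OE (SD, n = 3 each). The log2 fold changes of PRDX1, PRDX2, PRDX5 and PRDX6 ran from -0.016 to 0.062 with standard errors of 0.041 to 0.062. The mitochondrial member PRDX3 had 232, 234 and 236 FPKM in Control and 248, 245 and 240 FPKM in NR3C2-OE. Its groups did not overlap in FPKM, but in CPM they did, with 444 in Control library 3 and 443 in NR3C2-OE library 3. The difference was a log2 fold change of 0.042 (SE 0.037, edgeR adjusted p = 0.790). PRDX4, the member of the endoplasmic reticulum, had the highest log2 fold change of the 6, 0.15 (SE 0.067, edgeR adjusted p = 0.564), and its FPKM overlapped between the groups (99.6 to 110 in Control and 108 to 124 in NR3C2-OE).

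SRXN1 was the 1 gene of the 7 without overlap that was lower in NR3C2-OE. It had 23.7, 24.1 and 23.8 FPKM in Control and 22.4, 23.2 and 23.1 FPKM in NR3C2-OE. The gap between the groups was small, with a log2 fold change of -0.081 (SE 0.040, edgeR adjusted p = 0.613). TXN had 416 to 422 FPKM in Control and 404 to 429 in NR3C2-OE (log2 fold change -0.035, SE 0.038). TXNRD1, the cytosolic thioredoxin reductase and carrier of 3 of the element matches in the searched windows, had 57.3, 54.3 and 69.6 FPKM in Control and 54.7, 86.2 and 55.3 FPKM in NR3C2-OE. It was highest in NR3C2-OE library 2, where NFE2L2 and KEAP1 were lowest, and the log2 fold change of 0.13 (SE 0.22) was -0.17 without that library.

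The 4 genes of the set grouped under the supply of NADPH, the electron donor of both systems, differed little in the counts. PGD of the oxidative pentose phosphate pathway, TALDO1 and TKT of its non-oxidative arm and ME1, the cytosolic malic enzyme, had log2 fold changes from -0.063 to 0.098 with standard errors of 0.046 to 0.059. The FPKM of PGD and TKT moved apart from their counts. NR3C2-OE library 2 had 63.8 FPKM of PGD against 79.7 to 88.6 in the other 5 libraries, while the effective transcript length implied by count and FPKM was 2597 bases there and 1924 bases at its lowest.

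The aldo-keto reductases reduce aldehydes and ketones and include steroid-metabolizing enzymes. AKR1B1, the aldose reductase of the polyol pathway, had 1242, 1208 and 1208 FPKM in Control and 1335, 1246 and 1355 FPKM in NR3C2-OE. In FPKM the groups did not overlap, the highest Control value being 1242 and the lowest NR3C2-OE value 1246. In CPM they did, with 2008 in Control library 1 and 1990 in NR3C2-OE library 2. The log2 fold change was 0.087 (SE 0.044, edgeR adjusted p = 0.619). AKR1C3, which converts steroids and prostaglandins, averaged 3.84 ± 0.37 FPKM in the Control group and 4.23 ± 0.37 in the other (SD, n = 3 each; log2 fold change 0.12, SE 0.12). AKR1C1 had 40 to 126 estimated counts in a library, AKR1B10 7 to 40 and AKR1C2 0 to 12. None of these 3 gives a narrow bound on a difference, with standard errors of 0.47 and 0.58 for the log2 fold changes of AKR1C1 and AKR1B10, and the AKR1C sequences are so alike that reads may be shared between those genes.

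Superoxide dismutases turn superoxide into hydrogen peroxide, which catalase removes. SOD1, the cytosolic enzyme, had 171, 171 and 166 FPKM in Control and 170, 189 and 156 FPKM in NR3C2-OE, with a log2 fold change of 0.0030 (SE 0.070). CAT had 8.35, 8.59 and 8.63 FPKM in Control and 8.83, 9.26 and 9.21 FPKM in NR3C2-OE. The groups did not overlap in FPKM, but in CPM they did, with 22.6 in Control library 2 and 22.5 in NR3C2-OE library 1. The log2 fold change in the counts was 0.041 (SE 0.058, edgeR adjusted p = 0.883). SOD2 (ENSG00000291237), the mitochondrial enzyme, had 309, 107 and 71.5 FPKM in Control and 295, 135 and 104 FPKM in NR3C2-OE. Library 1 of each group was more than 2 times as high as the others, but the CPM (counts scaled to library size alone) differed less, with 593, 416 and 397 in Control and 617, 386 and 381 in NR3C2-OE. The implied effective length of SOD2 was 1920 and 2082 bases in library 1 of Control and of NR3C2-OE and 2892 to 5513 bases in the other 4 libraries, so FPKM and counts give different orders of the libraries. SOD2 had a log2 fold change of -0.024 (SE 0.24, edgeR adjusted p = 0.986) in the counts and 0.13 in mean FPKM.

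**Figure D3:**
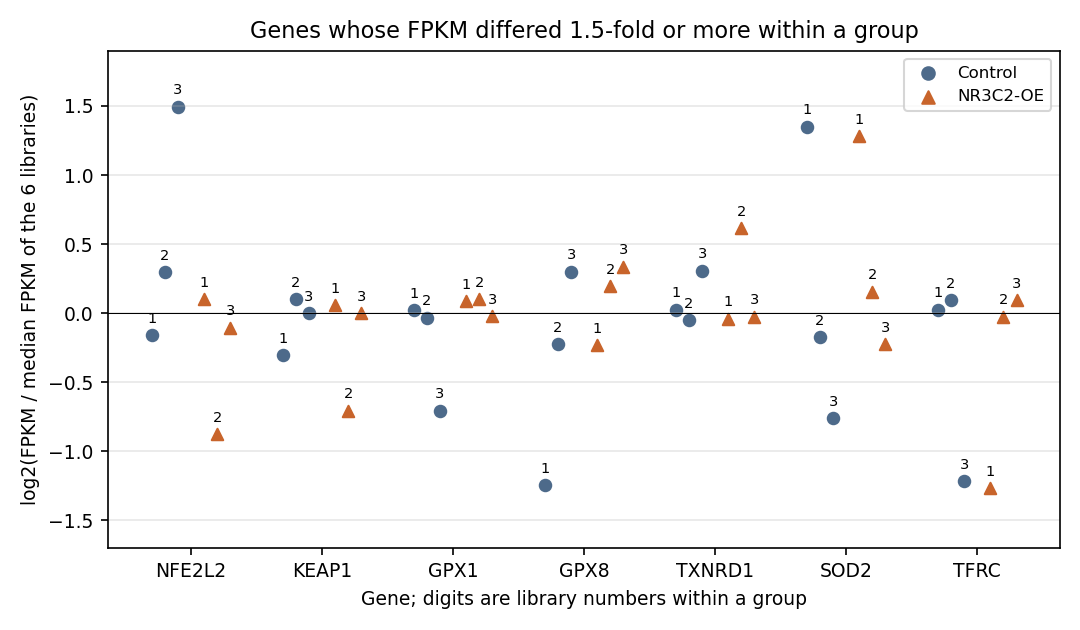
Log2 of FPKM over the median FPKM of the 6 libraries (y axis) for the 7 genes that differed 1.5-fold or more within a group, with library numbers beside the points. The library that stands apart differs from gene to gene: Control 3 for NFE2L2 and GPX1, NR3C2-OE 2 for KEAP1 and TXNRD1, Control 1 for GPX8, library 1 of each group for SOD2, and Control 3 with NR3C2-OE 1 for TFRC.

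Uneven genes of this kind were about as common among all genes. Among genes with a mean of at least 1 FPKM, 7 of 38 (18.4%) differed 1.5-fold or more within a group, against 21.3% of all such genes tested. Control library 3 was the most deeply sequenced, with 132533971 estimated counts, and the part of depth in these differences was not tested.

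The smallest p of the 40 belonged to an iron gene, NCOA4. NCOA4 (ENSG00000266412) is the receptor that carries ferritin to lysosomes, where its iron is released. It had 98.7, 108 and 105 FPKM in Control and 117, 118 and 116 FPKM in NR3C2-OE, or 104 ± 4.79 against 117 ± 1.09 (SD, n = 3 each). All 3 NR3C2-OE libraries lay above all 3 Control libraries, and in CPM the groups were also apart, at 402, 436 and 431 against 486, 484 and 477. The log2 fold change was 0.19 (SE 0.044), a fold change of 1.06 to 1.23 in the 95% interval. With an unadjusted p of 0.00421 it did not pass edgeR's test over all genes (adjusted p = 0.328), and over all alternatives the adjusted p was 0.201 to 0.688. The unadjusted p stayed below 0.05 in the main fit and its 15 alternatives, the 6 that left out a library among them.

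Ferritin, the cargo of NCOA4, was abundant and even. FTL had 1819, 1892 and 1927 FPKM in Control and 1945, 1851 and 1821 FPKM in NR3C2-OE, and the groups overlapped (log2 fold change -0.027, SE 0.047, edgeR adjusted p = 0.911). FTH1 had 1161, 1152 and 1096 FPKM in Control and 1389, 1237 and 1149 FPKM in NR3C2-OE. Its highest value, in NR3C2-OE library 1, stood apart. The log2 fold change of 0.13 (SE 0.071, edgeR adjusted p = 0.657) was 0.049 without that library. It was 0.110 to 0.185 when any other library was left out. Pseudogenes of FTH1 and FTL held up to 0.741% and 0.135% of the counts of their parents. SLC40A1, the iron exporter ferroportin, had 2.98 ± 0.17 and 3.03 ± 0.20 FPKM (SD, n = 3 each; log2 fold change 0.014, SE 0.085). These 3 mRNAs carry the hairpin in the 5′ UTR shown above, a position at which iron acts on translation, which RNA levels do not report.

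TFRC (ENSG00000072274), the transferrin receptor that brings iron into the cell, took separate levels that cut across the groups. Its FPKM was 103, 108 and 43.4 in Control and 42.0, 99.2 and 108 in NR3C2-OE. Control library 3 and NR3C2-OE library 1 were low and the other 4 libraries lay between 99.2 and 108, so each group held 1 low library. CPM showed the same, with 263 and 254 in the low libraries and 572 to 635 in the others. The log2 fold change was -0.062 (SE 0.44, edgeR adjusted p = 0.979) with an interval from -1.12 to 1.00, and it ran from -0.37 to 0.25 when 1 library was left out. TFRC is the 1 gene of the set with the hairpins in its 3′ UTR. The libraries low in TFRC had the lowest (1096 FPKM) and the highest (1389 FPKM) FTH1, and their FTL was 1927 and 1945 FPKM, the highest of the 6.

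Both ferroptosis genes outside the peroxidases had a positive log2 fold change, and neither passed the test. AIFM2, known as FSP1, reduces coenzyme Q at the membrane and protects from lipid peroxidation in parallel to GPX4. It had 9.60, 9.17 and 9.31 FPKM in Control and 10.7, 10.1 and 11.1 FPKM in NR3C2-OE. The groups did not overlap, with a log2 fold change of 0.16 (SE 0.061, unadjusted p = 0.0338, edgeR adjusted p = 0.503). The unadjusted p was below 0.05 in 1 of the 6 fits that left out a library. ACSL4, which loads polyunsaturated fatty acids into membranes and so favours lipid peroxidation, had 69.2 ± 6.09 and 75.7 ± 4.44 FPKM (SD, n = 3 each), with overlapping values (log2 fold change 0.11, SE 0.075, edgeR adjusted p = 0.707).

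**Figure D4:**
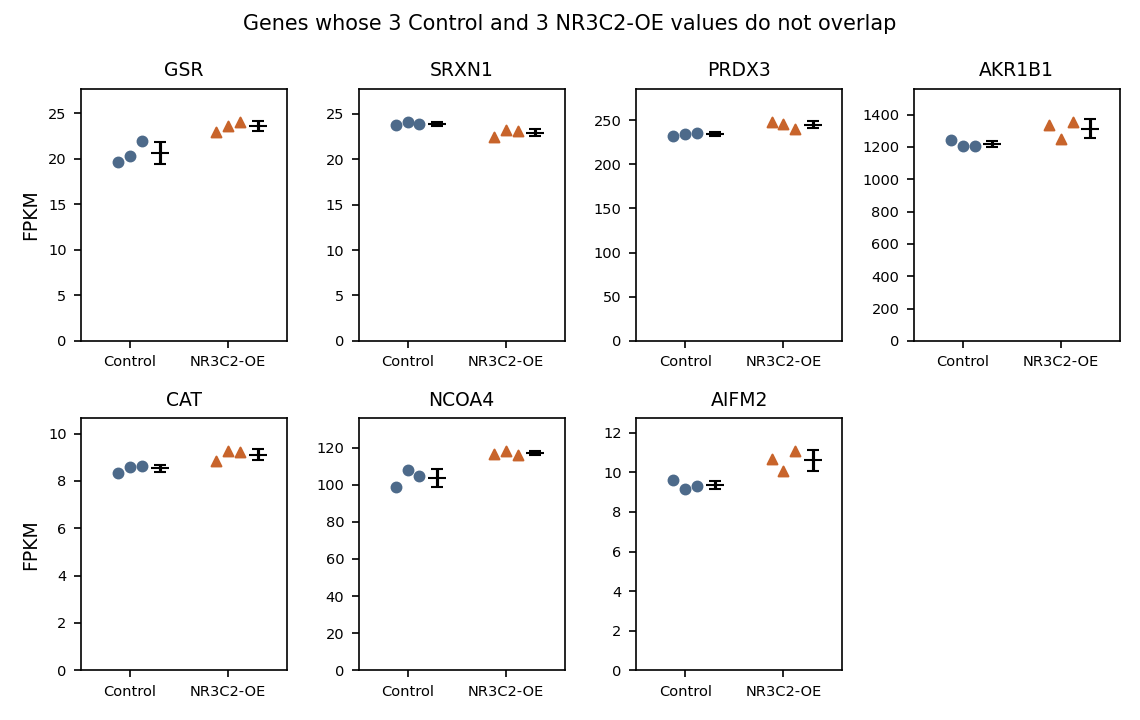
FPKM (y axis from 0) of the 7 genes whose 3 Control (circles) and 3 NR3C2-OE (triangles) values did not overlap, with mean and SD as a bar beside the points. NCOA4, GSR and AIFM2 show the widest relative gaps, while SRXN1, PRDX3, AKR1B1 and CAT differ by little.

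Other genes of the same pathways, listed by pathway membership, were counted in the same way. Of 82 measured genes in 4 lists, 78 were tested and 0 passed over all genes by edgeR, with 3 higher and 4 lower at an unadjusted p below 0.05 (8.97%, against 9.19% of all tested genes). Among 29 other NRF2 pathway genes, UGDH, GSS and MGST3 had an unadjusted p below 0.05. GSS, glutathione synthetase, had 38.1, 38.9 and 36.0 FPKM in Control and 38.9, 48.5 and 49.7 FPKM in NR3C2-OE (log2 fold change 0.19, SE 0.066, edgeR adjusted p = 0.492). NR3C2-OE library 1 lay at the top of the Control values, and the other NR3C2-OE libraries lay above them. The microsomal transferase MGST3 had a log2 fold change of 0.12 (SE 0.048) in the counts. Its FPKM overlapped, at 92.5 to 113 in Control and 107 to 116 in NR3C2-OE. UGDH, which makes UDP-glucuronic acid, had -0.18 (SE 0.045) in the counts, while the Control FPKM lay inside the NR3C2-OE range of 18.8 to 26.3.

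In the other 3 lists, HMOX2, SAT1 and DHODH had an unadjusted p below 0.05, all with lower counts in NR3C2-OE. HMOX2, the constitutive haem oxygenase, had 10.5, 10.6 and 9.90 FPKM in Control and 7.67, 8.68 and 7.54 FPKM in NR3C2-OE. The groups did not overlap in FPKM (log2 fold change -0.39, SE 0.14, edgeR adjusted p = 0.503), but in CPM Control library 3 had 14.7, near the 14.0 to 14.6 of NR3C2-OE. SAT1, which acetylates polyamines, had a log2 fold change of -0.12 (SE 0.048) and DHODH, the mitochondrial enzyme of pyrimidine synthesis, -0.33 (SE 0.13). The FPKM of DHODH overlapped, at 2.57 to 3.22 in Control and 2.55 to 2.95 in NR3C2-OE. Among 19 other thiol and peroxide genes, GGT1, which splits extracellular glutathione, had the smallest p. It had 16.3, 17.5 and 45.5 FPKM in Control and 56.7, 54.0 and 51.1 FPKM in NR3C2-OE. The groups did not overlap, but Control library 3 lay close to the NR3C2-OE values, and edgeR's test was not passed (log2 fold change 1.23, SE 0.60, adjusted p = 0.603).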

How the data were processed

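RNA-seq was measured in 6 HK2 libraries, 3 Control and 3 NR3C2-OE. The submitters' processing notes name cutadapt 1.2.1, an adapter trimmer. Aligner, counting program and genome build: not given in the sources used here. The authors deposited 1 table with an FPKM value and an estimated count, already whole, per gene and library. The estimated counts, as deposited, are not tallies of single reads (8694 values of 4 against 5772 of 3 and 5504 of 5), so totals overstate independent fragments. FPKM depends on how reads were shared among transcripts. Symbols were matched to 36466 Ensembl IDs, and 736 other rows stayed in totals and tests.

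Counts were tested with edgeR 4.0.16 (glmQLFit and glmQLFTest, filterByExpr, TMM, group alone, R 4.3.3). Tests were two-sided, with Benjamini-Hochberg adjustment over all tested genes at 0.05. The code was also checked on simulated data, and the outcome of that check is not reported here. Standard errors come from the F statistics, and 95% intervals use edgeR's total degrees of freedom (median 6.36). Means are ± SD over 3 libraries. Named genes were those with an unadjusted p below 0.05 or no overlap in FPKM, a fixed set of regulators, targets and iron genes, and up to 4 per pathway list; the others are summarized. A gene that this rule names is not reported here. Members and lists were chosen with earlier results of these data known. Alternatives were leaving out each library, a replicate block, DESeq2 1.42.0 size factors or its Wald test, other filters, limma 3.58.1 (voom, or trend on log2(FPKM + 1) or + 0.1), and counts divided by 4.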

Additional observations from a re-analysis of the deposited data

How the results depend on the processing

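No alternative called any of the 40 genes, and the median log2 fold change stayed between 0.024 and 0.063. The number of genes called over the whole table, 6, was 250 with the DESeq2 Wald test, 11 on log2(FPKM + 0.1) and 5 to 18 without 1 library. The replicate numbers did not pair the libraries (correlation of deviations 0.027, 0.016 and 0.004 for equal numbers, and not every library correlated best with its own number). With the replicate block in edgeR 0 genes were called and 1490 had an unadjusted p below 0.05. The count of set genes with an unadjusted p below 0.05, 3, was 1 with DESeq2 and 2 to 4 without 1 library. Over all genes, DESeq2 listed 2068 of 37202, and the fits without 1 library listed 1528 to 2224 of 22199 to 22275. The count without overlap, 7, was 4 in log2 CPM (16.7% of all genes) and 8 to 13 without 1 library (25.1% to 28.9% of all genes), where fewer samples make overlap rarer.

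Signs turned for 19 genes, of which the largest log2 fold change was 0.21, and the cause was not tested. SOD1 became -0.001 with the replicate block, -0.008 without a filter, -0.002 with DESeq2 and -0.002 with voom, and PRDX6 -0.003 without a filter. On log2(FPKM + 1) and log2(FPKM + 0.1), AKR1C1 became -0.004 and -0.039, NQO1 0.009 and 0.009, GCLM 0.015 and 0.016, PRDX5 0.006 and 0.006, PGD -0.093 and -0.094, and SOD2 0.264 and 0.266. Without 1 library the ranges were -0.028 to 0.065 for SLC40A1, -0.034 to 0.071 for GCLC, -0.059 to 0.080 for MAFG, -0.025 to 0.079 for GPX4, -0.007 to 0.034 for PRDX6, -0.291 to 0.180 for SOD2, -0.371 to 0.245 for TFRC, -0.059 to 0.003 for TALDO1, -0.489 to 0.410 for AKR1C1, -0.033 to 0.015 for PRDX5, -0.007 to 0.332 for GPX1, -0.063 to 0.068 for SOD1, -0.016 to 0.087 for ABCC1, -0.154 to 0.006 for GCLM, -0.275 to 0.614 for AKR1B10, -0.307 to 0.090 for KEAP1, -0.082 to 0.017 for NQO1 and -0.166 to 0.267 for TXNRD1. AKR1C1, AKR1C2 and AKR1B10 had at most 126 estimated counts in a library, and the part of depth in their spread was not tested.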
